A study of Mus musculus with 76 samples.

Results

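Extracellular catalase was injected into 4T1 tumors whose cells already carried an inducible catalase, and the tumor transcriptomes were compared with those of the same tumors given the carrier alone. The comparison holds 10 of the 38 tumors of the series (20 of 76 libraries), chosen by label: 5 4T1-CAT tumors given CAT-ABP + alum and 5 4T1-CAT tumors given alum. 4T1 is a mouse mammary carcinoma line. 4T1-CAT is 4T1 transduced with a lentivirus that expresses human catalase in the cytoplasm, together with GFP, when doxycycline (DOX) is given. Its cells were selected with puromycin and sorted for GFP, and no source used here says that the line is 1 clone. CAT-ABP is recombinant catalase carrying an alum-binding peptide, and alum is a particulate aluminum hydroxide that holds the protein at the injection site. All 10 mice were female Balb/c, received 500000 4T1-CAT cells under the skin of the flank, ate DOX from day 4, and were injected into the tumor on day 6 with 100 µg alum, with or without 20 µg CAT-ABP. Tumors were taken on day 8, and the study's methods place each step a day later. All 10 tumors therefore shared the transgene, the diet and the alum, and the groups differed in the injected catalase.

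Catalase turns hydrogen peroxide into water and oxygen. Peroxide is both a source of oxidative damage and a signal that reversibly oxidizes cysteines of phosphatases and transcription regulators, and cells answer excess peroxide through peroxiredoxins, glutathione peroxidases and the NRF2 program. Oxygen released by catalase is the reason that hypoxia and glycolysis genes are read in such tumors. Because RNA came from the whole tumor, fewer cells of a type and less RNA per cell cannot be told apart. Only mouse genes were counted, so neither the human transgene nor the injected protein was measured.

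The technical replicates, 2 libraries per tumor, differed in the first part of their index tags, and they contributed unequally to the groups. Separate sequencing pools are inferred from these tags. The inferred pool coincides with the technical replicate number, so other differences between the 2 replicates cannot be told apart from it. The second libraries of alum tumors 2 and 3 carry the same full tag in one column of the sample metadata and different tags in another, with the first part alike, so the pool does not depend on it but the match of these 2 libraries to their tumors rests on the library names. Summed counts ran from 4505755 to 8709773 per CAT-ABP + alum tumor (median 5339033) and from 2236452 to 6862410 per alum tumor (median 4998358), a log2 difference of 0.36 (two-sided exact permutation test, p = 0.349). Technical replicate 1 supplied 78.0%, 95.5%, 56.0%, 79.3% and 62.9% of the counts of CAT-ABP + alum tumors 1 to 5. In alum tumors 1 to 5 it supplied 40.6%, 30.8%, 41.6%, 30.3% and 38.4%. No share in one group reached the other (p = 0.00794 by the same exact permutation test, the smallest that 5 against 5 allows). Within tumors, 1899 of 10824 genes (17.5%) differed between the 2 technical replicates at an adjusted p of 0.05 or less (edgeR quasi-likelihood test with a term for each tumor). The second library of CAT-ABP + alum tumor 2 held 211876 counts, and its log2 CPM correlated with that of the first library at r = 0.81 across genes, against 0.92 to 0.96 in the other 9 tumors. Gene lists and the main named genes are therefore also given for each technical replicate alone or for equal counts, in which the deeper library of a tumor was thinned, in 1 random draw, to the total of the shallower.

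**Figure D1:**
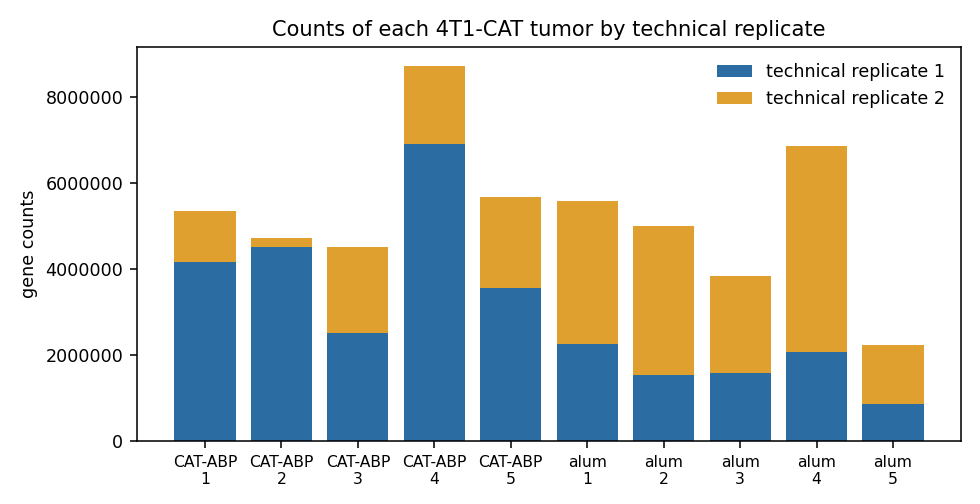
Gene counts (vertical axis) for each of the 10 4T1-CAT tumors (horizontal axis, group and replicate number), with bars split by technical replicate. Technical replicate 1 makes up between 56.0% and 95.5% of each CAT-ABP + alum bar and between 30.3% and 41.6% of each alum bar.

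No gene passed an adjusted p of 0.05 by edgeR in the summed counts. Of 13093 genes tested (edgeR quasi-likelihood test, Benjamini-Hochberg), 0 were called (0%), and the smallest adjusted p was 0.108. At an unadjusted p under 0.05 there were 884 genes with higher values (6.75%) and 1116 with lower values (8.52%) in CAT-ABP + alum tumors, 2000 in all (15.3%). DESeq2 on the same sums called 214 genes (0.721% of 29681), 106 higher and 108 lower. With equal counts, 501 of 12092 genes (4.14%) had an unadjusted p under 0.05, 2.01% higher and 2.13% lower. In technical replicate 1 they were 1381 of 11392 (12.1%, with 4.77% higher and 7.36% lower) and in technical replicate 2 254 of 10531 (2.41%, with 0.931% higher and 1.48% lower). edgeR called 0 genes in each of the 3. On simulated counts for this comparison, the test found 92.4% of 4-fold changes, 65.7% of 2-fold changes and 19.4% of 1.5-fold changes. The simulation gave each gene a common mean across tumors apart from these changes. It did not include the unequal shares of the technical replicates, so its rates need not hold for the measured counts. The classes described here are thus classes of fold changes, with no member called by edgeR at these settings. In the counts of list members that follow, higher and lower mean at an unadjusted p under 0.05 in edgeR, to be read against 6.75% higher and 8.52% lower among all genes in summed counts. Counts in technical replicate 1, technical replicate 2 and equal counts are to be read against their own shares. These were 4.77%, 0.931% and 2.01% higher and 7.36%, 1.48% and 2.13% lower. A smaller count in those settings is thus not by itself a loss of the class. DESeq2 on the same sums called 3 skeletal muscle genes and 1 gene each of the fibroblast, alternative macrophage activation, macrophage, dendritic cell, neutrophil, inflammatory cytokine, peroxide enzyme, type I interferon and proliferation lists.

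The contrast between groups and the contrast between technical replicates draw on the same libraries, so their log2 fold changes are set side by side without a measure of likeness. Srrm2, at 0.65 for CAT-ABP + alum over alum, was at 0.48 for technical replicate 1 over 2 within tumors. Aldh1a3 had -0.69 and -0.52, and Ndufa1 -0.45 and -0.56. For these genes both values were on 1 side of 0. So they were for Myl1, with -1.26 and -0.66 (edgeR adjusted p between technical replicates 0.0014), Mylpf, with -0.74 and -0.33 (0.035), and Retnla, with -2.18 and -0.63 (0.031). Tnnc2 had -1.24 and -0.23, Acta1 -0.80 and 0.084, and H2-T22 0.54 and 0.13. Genes of 1 class thus differed in how far apart their technical replicates lay.

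**Figure D2:**
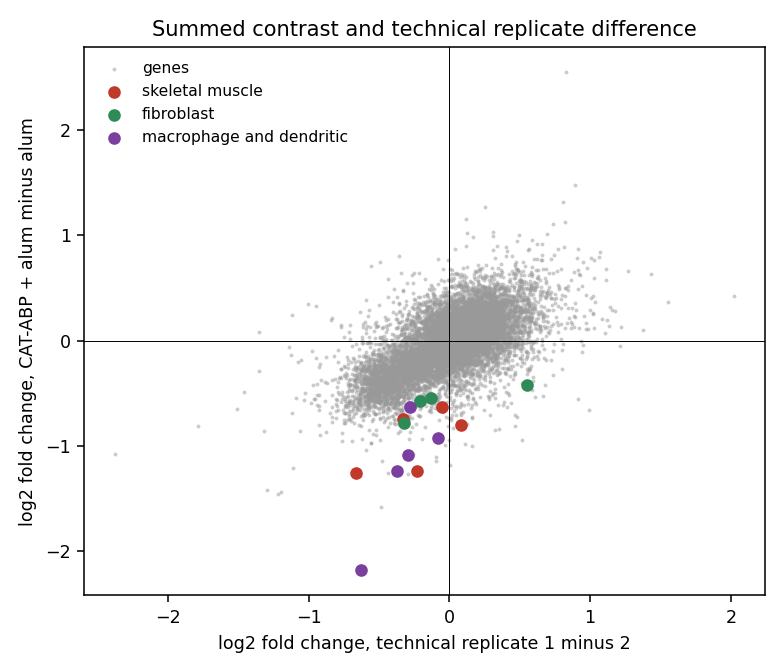
Each point is 1 of 10824 genes, with the log2 fold change of technical replicate 1 over 2 within tumors on the horizontal axis and that of CAT-ABP + alum over alum in summed counts on the vertical axis. Both axes come from the same libraries. Grey points run from lower left to upper right, and the 14 colored muscle, fibroblast and macrophage or dendritic genes all lie below 0 on the vertical axis, from -2.18 for Retnla to -0.42 for Pdgfrb. The 14 were chosen among genes with lower values in this contrast, so their side of 0 follows from the choice.

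The genes with higher values were mostly protein-coding and had longer transcripts than the rest. Among the 884, 94.0% were protein-coding, against 87.3% of all tested, and their median longest transcript was 4521 nt against 3452 nt for all protein-coding genes tested. Their median exon number was 15, against 10. Genes higher in technical replicate 1 than in 2, drawn from the same libraries, had a median transcript of 4182 nt and 14 exons. In summed counts the median log2 fold change went from -0.27 in 497 genes with transcripts up to 1000 nt to 0.12 in 1088 genes over 7000 nt, and with equal counts from -0.16 to 0.07. In technical replicate 2 alone it went from -0.05 to 0.01.

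Among the genes with the smallest p on the higher side were Gm42863, Srrm2, Gm8995, Pcm1, Gm13378, Sec16a, Ctr9, Rbm6 and Setd2. Srrm2, a scaffold protein of nuclear speckles that takes part in splicing (chr17:23790532-23824741, GRCm38), was at 86.2, 83.1, 82.7, 93.9 and 92.7 CPM (counts scaled to a common library total, TMM-normalized) in CAT-ABP + alum tumors 1 to 5 and at 53.2, 67.8, 49.3, 53.1 and 55.6 in alum tumors 1 to 5 (log2 fold change 0.65 ± 0.11 (SE), unadjusted p = 3.04e-05, edgeR adjusted p = 0.108). Every CAT-ABP + alum tumor lay above every alum tumor, as in 286 of the 13093 genes (2.18%). Its log2 fold change was 0.65 in technical replicate 1 and 0.24 in technical replicate 2. Setd2, the methyltransferase that places trimethylation on lysine 36 of histone H3 (chr9:110532597-110618633), stood at 77.6, 86.3, 77.4, 93.5 and 110.1 CPM with CAT-ABP and at 57.2, 65.7, 57.6, 56.4 and 52.6 without (log2 fold change 0.62 ± 0.12 (SE), unadjusted p = 0.000134, edgeR adjusted p = 0.13). The groups did not overlap, and the fold changes in the technical replicates were close, 0.44 and 0.45.

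Pcm1, a protein of centriolar satellites, was at 67.98, 66.1, 53.5, 74.9 and 80.8 CPM against 44.8, 46.4, 39.3, 40.8 and 37.96 (log2 fold change 0.71 ± 0.12 (SE), unadjusted p = 4.11e-05, edgeR adjusted p = 0.108), with 0.72 in technical replicate 1 and 0.27 in technical replicate 2. Ctr9, a subunit of the PAF1 complex of transcribing RNA polymerase II, was at 18.4, 18.1, 16.97, 21.03 and 17.5 CPM against 8.89, 11.2, 13.2, 9.81 and 8.63 (log2 fold change 0.84 ± 0.16 (SE), unadjusted p = 8.36e-05, edgeR adjusted p = 0.13). Neither gene overlapped between groups, but the Ctr9 value was 1.07 higher on the log2 scale in technical replicate 1 than in 2, and its fold change with equal counts was 0.38 (unadjusted p = 0.158). Sec16a (scaffold of endoplasmic reticulum exit sites) and Rbm6 (an RNA-binding protein) had log2 fold changes of 0.68 and 0.56, each without overlap between groups. Another 3 were loci of uncertain annotation. Gm42863 (chr5:145504097-145507054, annotated as TEC, a class awaiting experimental proof) was at 37.03, 33.05, 33.9, 46.9 and 45.4 CPM against 23.4, 20.9, 20.9, 18.5 and 13.8 (log2 fold change 1.00 ± 0.15 (SE), unadjusted p = 1.24e-05, edgeR adjusted p = 0.108). It had the smallest p of all genes in summed counts, and its log2 fold change was 0.97 and 0.59 in technical replicates 1 and 2. Gm8995 (a transcribed pseudogene, 0.92) and Gm13378 (a processed pseudogene, 1.12) can share reads with their parent genes, so their counts are uncertain.

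The genes with lower values had shorter transcripts, more of them were noncoding, and among them were markers of muscle, stromal and immune cells. Of the 1116, 70.0% were protein-coding, with a median transcript of 2812 nt and 7 exons, and genes lower in technical replicate 1 than in 2 had 2245 nt and 6 exons. The 10 smallest p belonged to Aldh1a3, Ccl17, Tnnc2, F630028O10Rik, AC132452.2, Fgd4, Gm37621, Gm11353, 2310058D17Rik and Myl1. Aldh1a3, which makes retinoic acid from retinal, was at 43.7, 42.6, 38.1, 35.9 and 36.3 CPM with CAT-ABP and at 64.2, 50.99, 75.4, 67.9 and 58.7 with alum (log2 fold change -0.69 ± 0.12 (SE), unadjusted p = 4.96e-05, edgeR adjusted p = 0.108). Its groups did not overlap, as in 109 genes with lower values (0.833%). The log2 fold change was -0.92 in technical replicate 1 but 0.045 in technical replicate 2. Fgd4, an activator of the GTPase CDC42, was closer to 0 in technical replicate 2 as well (-0.73 in summed counts, -0.80 and -0.22 in the technical replicates). The noncoding F630028O10Rik, AC132452.2, Gm37621 and 2310058D17Rik and the processed pseudogene Gm11353 had log2 fold changes between -1.35 and -0.55.

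Skeletal muscle genes had lower values, to a like extent in both technical replicates. Of 15 muscle markers listed, 12 were tested, 7 had lower values at an unadjusted p under 0.05 and 0 higher, against 8.52% lower among all genes, and edgeR called 0. Their median log2 fold change was -0.65, against 0.00 over all genes, and was -0.64 in technical replicate 1, -0.63 in technical replicate 2 and -0.60 with equal counts. The summed level of the list ranged from 319 to 447 CPM with CAT-ABP + alum and from 404 to 1206 CPM with alum, and no listed marker was at 0 in all tumors. Without alum tumor 5, the highest for several of these genes, 7 members were still lower and the median was -0.48. DESeq2 called 3 of 15 members, edgeR without a filter on low counts 4, DESeq2 with each library as a sample 1 and the replicate block 1. Here and below, DESeq2 with each library as a sample counts the 2 libraries of a tumor as separate samples. Its p-values thus do not measure the spread between tumors.

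Tnnc2, the calcium-binding troponin subunit of fast muscle (chr2:164777161-164779967), was at 84.4, 90.4, 71.4, 63.5 and 90.7 CPM in CAT-ABP + alum tumors 1 to 5 and at 149, 212, 161, 102 and 324 in alum tumors 1 to 5 (log2 fold change -1.24 ± 0.24 (SE), unadjusted p = 0.00014, edgeR adjusted p = 0.13). No CAT-ABP + alum tumor reached the lowest alum tumor (two-sided exact permutation test, p = 0.00794). The sources used here do not say whether counting used strand, so reads cannot be told apart from those of an overlapping gene on the other strand for Tnnc2 (Ube2c), and likewise for Srrm2 (Elob), Tap1 (Psmb9), Acta1 (Gm20388) and Igf1 (Igf1os). Myl1, a light chain of fast myosin, was at 31.3, 26.4, 21.4, 21.7 and 28.3 CPM against 40.4, 67.01, 51.8, 32.96 and 123 (log2 fold change -1.26 ± 0.29 (SE), unadjusted p = 0.000571, edgeR adjusted p = 0.187). The light chain Mylpf was at 33.3, 34.5, 28.1, 29.2 and 32.4 CPM against 51.1, 45.1, 54.7, 35.7 and 81.1, and like Myl1 did not overlap between groups (log2 fold change -0.74 ± 0.18 (SE), unadjusted p = 0.000841, edgeR adjusted p = 0.187). Tnni2, the inhibitory troponin subunit, had a log2 fold change of -0.63 without overlap, the calcium pump Atp2a1 had -2.07 and the troponin subunit Tnnt3 -0.43. Acta1, the actin of skeletal muscle fibers, was at 136, 170.1, 105, 86.3 and 139 CPM against 206, 163, 249.6, 119 and 380.5, with overlapping groups (log2 fold change -0.80 ± 0.26 (SE), unadjusted p = 0.00804, edgeR adjusted p = 0.208). Acta1 and Tnni2 were not chosen by the rule for named genes and are given because they were at an unadjusted p under 0.05 in both technical replicates.

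The promoters of 2 of these muscle genes are shown because their genes had lower values together and the windows differ in the motifs they hold. Each runs from 250 bases before to 50 after a RefSeq start (GRCm38.p6, minus strand), with capitals marking matches on either strand to TATAAA, to the E-box CAGCTG and to the CArG box bound by serum response factor.
Acta1, chr8:123894726-123895025: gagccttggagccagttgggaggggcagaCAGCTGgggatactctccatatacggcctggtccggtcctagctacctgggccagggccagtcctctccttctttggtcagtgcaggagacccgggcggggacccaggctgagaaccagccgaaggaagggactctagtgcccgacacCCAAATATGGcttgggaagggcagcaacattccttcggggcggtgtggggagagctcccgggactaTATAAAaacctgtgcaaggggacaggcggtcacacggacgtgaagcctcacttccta
Tnnc2, chr2:164779685-164779984: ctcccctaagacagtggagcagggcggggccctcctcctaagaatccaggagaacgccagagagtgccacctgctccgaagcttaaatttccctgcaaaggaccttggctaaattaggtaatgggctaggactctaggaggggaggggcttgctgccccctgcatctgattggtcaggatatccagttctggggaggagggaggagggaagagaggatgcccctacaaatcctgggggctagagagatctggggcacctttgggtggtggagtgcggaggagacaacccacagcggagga
The Acta1 window held 1 match to each motif and the Tnnc2 window 0. The RefSeq start used lay 24 bases from the GENCODE gene start for Acta1 but 233 for Tnnc2. Most of the Tnnc2 window thus lies inside the annotated gene, and the 2 windows are not like for like. Windows of Myl1 and Mylpf were also scanned. Myl1 held 1 match to TATAAA and 1 to CAGCTG, and Mylpf 1 to CAGCTG. The RefSeq starts used lay 348 bases from the GENCODE gene start for Myl1 and 2718 for Mylpf. Both of these windows lie wholly inside the annotated genes. Of 32851 mouse windows of this length, 13.6% held TATAAA, 16.3% CAGCTG and 1.63% a CArG box. A match is a description of letters and not a bound site.

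**Figure D3:**
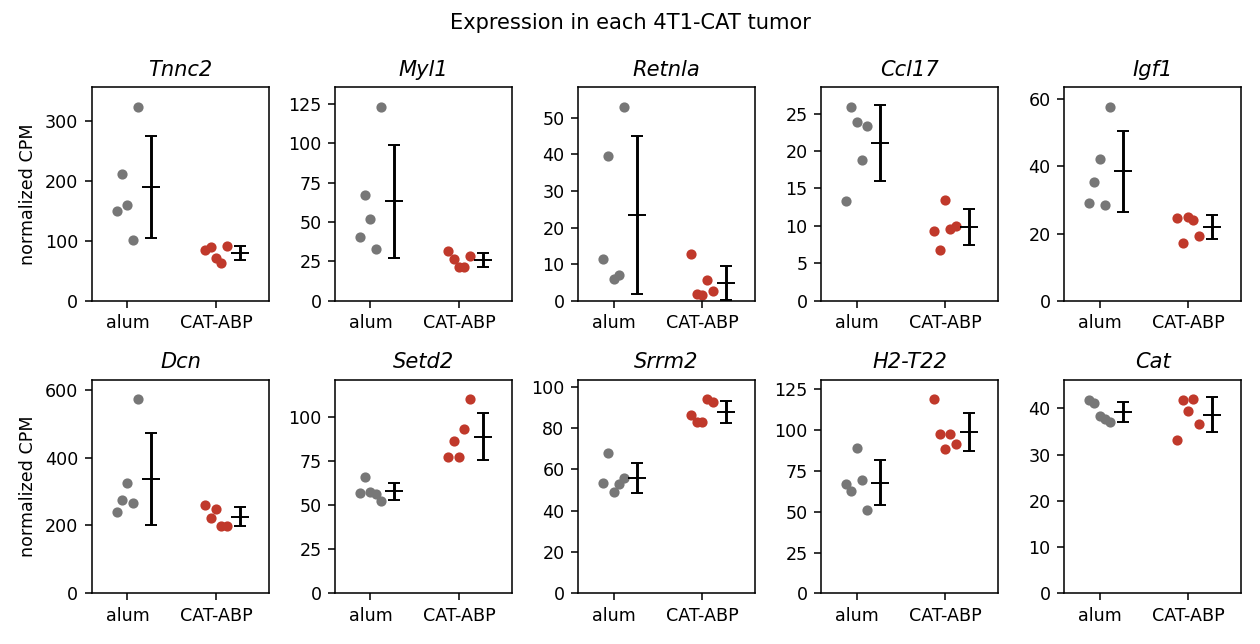
Normalized CPM (vertical axes, from 0) of 10 genes in the 5 alum tumors (grey points) and the 5 CAT-ABP + alum tumors (red points), with the mean and SD in black. Tnnc2, Myl1 and Igf1 lie lower without overlap, Srrm2 and Setd2 lie higher without overlap, and Cat overlaps fully.

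Fibroblast genes also had lower values. Of 12 markers tested, 5 were lower and 0 higher at an unadjusted p under 0.05, edgeR called 0 (DESeq2 1, and edgeR without a filter on low counts 1), and the median log2 fold change was -0.47 (-0.45, -0.44 and -0.31 in technical replicate 1, technical replicate 2 and equal counts). Without alum tumor 5 the median was -0.28, with 5 members lower. Igf1, a growth factor of stromal cells and macrophages, was at 24.5, 17.3, 24.9, 23.9 and 19.2 CPM against 29.1, 35.4, 42.2, 28.5 and 57.8, without overlap (log2 fold change -0.78 ± 0.19 (SE), unadjusted p = 0.000982, edgeR adjusted p = 0.187). Dcn, the matrix proteoglycan decorin, was at 259, 221, 249, 199 and 199 CPM against 239, 276, 326, 267 and 572, with overlapping groups (log2 fold change -0.57 ± 0.21 (SE), unadjusted p = 0.0143, edgeR adjusted p = 0.229). Alum tumor 5 held the highest value of both genes. Lum, a related proteoglycan, had a log2 fold change of -0.55 and Pdgfrb, the receptor of mural cells and fibroblasts, -0.42. Of 29 collagens and matrix genes in summed counts, 2 were lower, Timp1 (-0.53) and Col5a3 (-0.61). Col16a1 was higher (0.45), and both shares were below those over all genes. Lower ones were 2 of 27, 5 of 27 and 3 of 29 in technical replicate 1, technical replicate 2 and equal counts. Over all genes these shares were 7.36%, 1.48% and 2.13%. The list median was -0.19 in summed counts, -0.0061 without alum tumor 5 and -0.24 in technical replicate 2.

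Genes of alternatively activated macrophages were lower in 5 of 12 cases and higher in 0, with a median of -0.46 and 0 called by edgeR (1 by DESeq2, 1 by DESeq2 with each library as a sample, 2 by edgeR without a filter on low counts). Lower ones were 2 of 11, 4 of 10 and 4 of 11 in technical replicate 1, technical replicate 2 and equal counts. Over all genes the shares were 7.36%, 1.48% and 2.13%. Without alum tumor 5 the count of lower ones in summed counts was 3, with a list median of -0.23. Ccl17, a chemokine that draws CCR4-bearing T cells, was at 9.30, 6.82, 13.5, 9.61 and 9.92 CPM with CAT-ABP and at 13.3, 25.9, 23.8, 18.8 and 23.3 with alum (log2 fold change -1.09 ± 0.21 (SE), unadjusted p = 0.000129, edgeR adjusted p = 0.13). Only CAT-ABP + alum tumor 3 exceeded the lowest alum tumor. Retnla, a secreted protein induced by interleukin-4, was at 12.7, 1.71, 1.63, 5.66 and 2.52 CPM against 11.5, 39.6, 5.80, 6.91 and 53.1 (log2 fold change -2.18 ± 0.65 (SE), unadjusted p = 0.00452, edgeR adjusted p = 0.193). The alum tumors were widely spread, and CAT-ABP + alum tumor 1 lay above 3 of them. Ccl22, a second CCR4 ligand, had a log2 fold change of -0.92. Cd209a, a lectin of monocyte-derived dendritic cells, was at 13.6, 6.61, 9.76, 7.68 and 10.7 CPM against 11.2, 33.5, 21.6, 10.3 and 40.98 (log2 fold change -1.24 ± 0.35 (SE), unadjusted p = 0.00339, edgeR adjusted p = 0.191).

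Of 14 macrophage markers 3 were lower and 0 higher, against 8.52% and 6.75% of all genes (median -0.29). The 3 were Ms4a7 (-0.64), the lysosomal Cd68 (-0.55) and the lipid carrier Apoe (-0.41). In technical replicate 1, technical replicate 2 and equal counts, 3 of 13, 0 of 12 and 3 of 13 were lower. Over all genes the shares were 7.36%, 1.48% and 2.13%. The list median was -0.32, -0.24 and -0.29 in these settings, and in technical replicate 2, 0 of 12 were above 0. Ms4a7 differed by -0.44 between technical replicates 1 and 2. Of 10 T cell markers 3 were lower (median -0.45), namely Trbc2 (-0.82), Cd3g (-0.93) and Cd3d (-0.76). That median was -0.19 without alum tumor 5. In technical replicates 1 and 2, 1 of 8 and 1 of 7 were lower, against 7.36% and 1.48% of all genes. Of 10 markers of NK and cytotoxic lymphocytes 3 were lower, Eomes (-0.86), Ncr1 (-1.0) and Ccl5 (-0.70), and 1 higher, the granzyme Gzmc (0.64), with a median of -0.30. In technical replicates 1 and 2 alone 0 of 6 were lower, but Eomes and Ncr1 were not among the genes tested there. Ccl5 was at -0.56 and -0.39 in them. In technical replicate 2, 1 of 6 was higher, against 0.931% of all genes. Of 6 adipocyte markers tested 2 were lower (median -0.67), Fabp4 (-0.70) and Lpl (-0.64). Alum tumor 5 held the highest value of both. Without it the Fabp4 log2 fold change was -0.35, the Lpl log2 fold change was -0.34 and 0 of 6 were lower, as in technical replicate 2 alone (0 of 5) and with equal counts (0 of 6). The adipocyte medians in these last 2 settings were -0.33 and -0.53. In technical replicate 1, 2 of 5 were lower, against 7.36% of all genes (median -0.67). Endothelial markers were lower or higher in 0 of 14 cases (median -0.16, and 0.075 without alum tumor 5). Markers of epithelial tumor cells, which were present in every tumor with a summed level from 2140 to 3208 CPM in CAT-ABP + alum and from 2152 to 2806 CPM in alum tumors, were so in 0 of 12 (median 0.23).

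Subunits of oxidative phosphorylation had lower summed values, and less so in technical replicate 2. Of 41 tested, 10 were lower and 0 higher (median -0.30), with 5, 0 and 2 lower in technical replicate 1, technical replicate 2 and equal counts. Leaving out 1 tumor at a time gave between 2 lower (without CAT-ABP + alum tumor 4 or 5 or alum tumor 3 or 4) and 22 lower (without alum tumor 5), and the median lay between -0.37 and -0.18. Ndufa1, a complex I subunit, had a log2 fold change of -0.45 between groups and of -0.56 between technical replicates 1 and 2. Cytosolic ribosomal proteins were lower in 5 of 77 cases, a share below that of all genes, and in 0 with either technical replicate alone. Their median was -0.16 in summed counts but 0.084 in technical replicate 2, where 65 of 77 had log2 fold changes above 0. Of all genes, 4840 of 10531 were above 0 there.

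**Figure D4:**
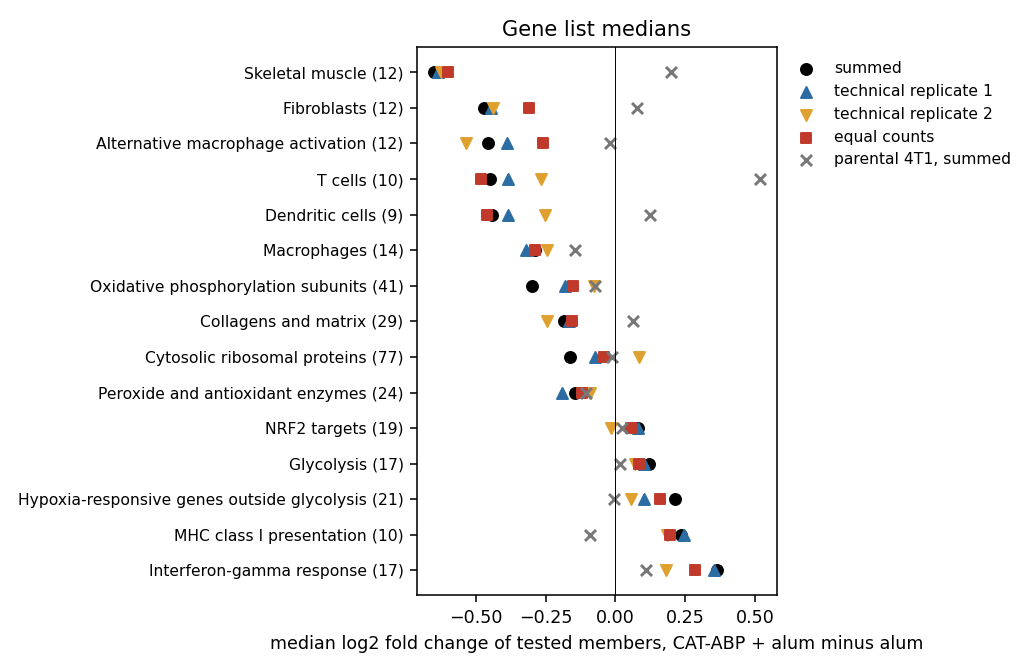
Median log2 fold change of CAT-ABP + alum over alum (horizontal axis) for 15 gene lists, with the number of members tested in summed counts, for summed counts, each technical replicate, equal counts and parental 4T1. The 4 values of skeletal muscle in 4T1-CAT lie between -0.65 and -0.60, and those of oxidative phosphorylation between -0.30 and -0.08.

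Of 24 enzymes that handle peroxide, 2 were higher and 4 lower at an unadjusted p under 0.05, with a median of -0.14 and 0 called by edgeR (1 by DESeq2). In technical replicate 2 alone 0 were higher and 1 of 22 lower. The higher ones were the reductases Txnrd1 (0.53) and Gsr (0.32), which recycle thioredoxin and glutathione, and the lower ones were Sod2, Gpx7, the mitochondrial glutaredoxin Glrx2 (-0.41) and the peroxidase Gpx8 (-0.45). Sod2, the superoxide dismutase of mitochondria that makes peroxide, was at 104, 83.1, 102, 86.5 and 97.6 CPM with CAT-ABP and at 124, 107, 140.1, 126 and 134 with alum (log2 fold change -0.42 ± 0.11 (SE), unadjusted p = 0.00204, edgeR adjusted p = 0.187). The groups did not overlap, and the fold change was -0.32 in technical replicate 1 and -0.17 in technical replicate 2. Gpx7, a peroxidase of the endoplasmic reticulum, was at 17, 20.9, 16.3, 13.6 and 14.8 CPM against 20.7, 22.5, 24.2, 20.9 and 31.9 (log2 fold change -0.53 ± 0.16 (SE), unadjusted p = 0.00519, edgeR adjusted p = 0.197), and at log2 fold changes of -0.55 and -0.45 in technical replicates 1 and 2. Mouse Cat was at 33.1, 41.8, 39.5, 41.9 and 36.6 CPM against 41.8, 41.1, 38.3, 37.6 and 37.1 (log2 fold change -0.025 ± 0.11 (SE), unadjusted p = 0.816, edgeR adjusted p = 0.934). Its values overlapped in full, and with library totals in place of TMM its fold change was 0.13.

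Targets of NRF2, the regulator of the antioxidant response, were higher in 2 of 19 cases and lower in 0, a count near the share over all genes (median 0.08). In technical replicate 2 alone 0 of 18 were higher and the median was -0.017. The 2 were Fth1, the ferritin heavy chain that stores iron (log2 fold change 0.36 ± 0.15 (SE), unadjusted p = 0.0277, edgeR adjusted p = 0.274), and Tkt, transketolase of the pentose phosphate pathway (0.23). Glycolysis genes were higher in 2 of 17 cases (median 0.12) and in 0 with either technical replicate alone. The 2 were the glucose transporter Slc2a1 (0.55) and Pdk1, which restrains pyruvate entry into mitochondria (0.55). Aldoa and Pgk1, glycolytic enzymes induced by hypoxia, had log2 fold changes of 0.15 and 0.063. Of 21 other hypoxia-responsive genes, 1 was higher and 1 lower (median 0.21), the lower one being the mitochondrial Higd1a (-0.37). The higher one was Car9, a carbonic anhydrase under HIF1 control, at 53.9, 55.01, 50.9, 43.8 and 51.96 CPM against 46.03, 43.8, 34.5, 39.1 and 31.5 (log2 fold change 0.38 ± 0.12 (SE), unadjusted p = 0.00856, edgeR adjusted p = 0.208). Its fold change was 0.56 in technical replicate 1 and 0.086 in technical replicate 2. Angptl4, also hypoxia-responsive, had -0.28, the acute-phase gene Saa3 -0.35 and Npl, a lyase of sialic acid, -0.54.

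Genes of antigen presentation by MHC class I had log2 fold changes above 0 in 10 of 10 cases in summed counts, 3 of them at an unadjusted p under 0.05 and 0 called by edgeR (median 0.24). Those above 0 were 9 of 10 in technical replicate 1, 9 of 9 in technical replicate 2 and 8 of 10 with equal counts, and those higher were 4, 0 and 0. Over all genes, those above 0 were 6527 of 13093 in summed counts. They were 5793 of 11392, 4840 of 10531 and 5768 of 12092 in technical replicate 1, technical replicate 2 and equal counts. The list median was 0.25, 0.19 and 0.20 in technical replicate 1, technical replicate 2 and equal counts. The summed level of the list overlapped between groups, from 4688 to 5806 CPM with CAT-ABP + alum and from 3566 to 5629 CPM with alum. Tap1 and Tap2, which form the peptide transporter, had log2 fold changes of 0.46 and 0.64, but Tap2 was at 0.18 with equal counts. Tapbp, which bridges the transporter and class I molecules, had 0.28. H2-T22, a class I-like molecule outside the list that was singled out after its values were seen, was at 119, 97.6, 88.3, 97.8 and 91.8 CPM against 66.8, 62.6, 89.2, 69.6 and 51.3 (log2 fold change 0.54 ± 0.14 (SE), unadjusted p = 0.00158, edgeR adjusted p = 0.187). Only CAT-ABP + alum tumor 3 fell below the highest alum tumor. Genes of antigen presentation by MHC class II had log2 fold changes above 0 in 1 of 7 cases, with 1 lower and 0 higher. The lower one was H2-Aa (-0.58), with overlapping groups. The class II median was -0.21, and -0.22, -0.21 and -0.23 in technical replicate 1, technical replicate 2 and equal counts. Interferon-gamma response genes were higher in 3 of 17 cases and lower in 0 (median 0.37), namely Irgm2 (0.61), Gbp3 (0.52) and Irf1 (0.38). In technical replicates 1 and 2 alone 2 of 16 and 1 of 15 were higher. The median in summed counts was 0.09 without CAT-ABP + alum tumor 1 and 0.15 without alum tumor 1. Type I interferon genes were higher in 2 of 25 cases (median 0.00), near the share over all genes, and in 0 of 24 in technical replicate 2. The 2 were the RNA sensors Ddx58 (0.41) and Ifih1 (0.36). Of 28 proliferation genes 2 were higher and 1 lower, with Mki67 at 0.54, Top2a at 0.34 and Birc5 at -0.42.

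Genes at an unadjusted p under 0.05 in both technical replicates, in 1 direction, numbered 38 of 10444 (0.364%), 15 higher (0.144%) and 23 lower (0.22%), and another 3 (0.0287%) were in opposite directions. Both replicates come from the same RNA of the same tumors, so the second is no further sample of animals. The lower genes included 5 muscle genes (Tnnc2, Myl1, Mylpf, Tnni2 and Acta1), the fibroblast genes Igf1, Lum, Dcn and Pdgfrb, and the macrophage or dendritic genes Ccl17, Retnla, Folr2 and Cd209a. Folr2, a folate receptor of tissue macrophages, had a summed log2 fold change of -0.63. The higher genes included Gm42863, Gm8995, Setd2 and H2-T22. Genes here were picked after their values were seen.

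The same injection in parental 4T1 tumors, which share no animals with these, was compared through the interaction term. Parental 4T1 cells were not transduced, selected or sorted, and the labels give no DOX diet for their mice. The catalase transgene, GFP, the selection and the DOX diet thus cannot be told apart in this comparison. Of 13851 genes, edgeR called 0 (0%, smallest adjusted p 0.529), and 1218 had an unadjusted p under 0.05 (8.79%), 475 with a higher (3.43%) and 743 with a lower effect (5.36%) in 4T1-CAT. With equal counts, 495 of 12590 did (3.93%). The smallest p was that of Cxcr2, a chemokine receptor of neutrophils, at 56.9, 52.2, 49.3, 43.7 and 43.97 CPM in 4T1-CAT with CAT-ABP and 63.8, 64.5, 82.8, 63.03 and 90.2 with alum (log2 fold change -0.56 ± 0.13 (SE), unadjusted p = 0.000777, edgeR adjusted p = 0.187). In 4T1-CAT the Cxcr2 log2 fold change was -0.85 in technical replicate 1 but -0.067 in technical replicate 2, and -0.49 with equal counts. Its log2 fold change was 0.47 in parental 4T1, and the difference was -1.03 ± 0.23 (SE), unadjusted p = 0.000134. With equal counts the difference was -0.90 (edgeR unadjusted p = 0.0171). Tnnc2 had 0.20 in parental 4T1 (difference -1.43 ± 0.45 (SE), unadjusted p = 0.00387). Retnla had 0.62 there (difference -2.81 ± 0.83 (SE), unadjusted p = 0.00238), and Dcn 0.44 (difference -1.01 ± 0.29 (SE), unadjusted p = 0.00203). Lpl, the lipoprotein lipase of fat and macrophages, had -0.64 in 4T1-CAT and 0.69 in parental tumors (difference -1.34 ± 0.36 (SE), unadjusted p = 0.00103). edgeR called no difference between the lines with its filter on low counts (1 gene without the filter, 0 by DESeq2), so none of the classes is shown to be particular to 4T1-CAT.

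**Figure D5:**
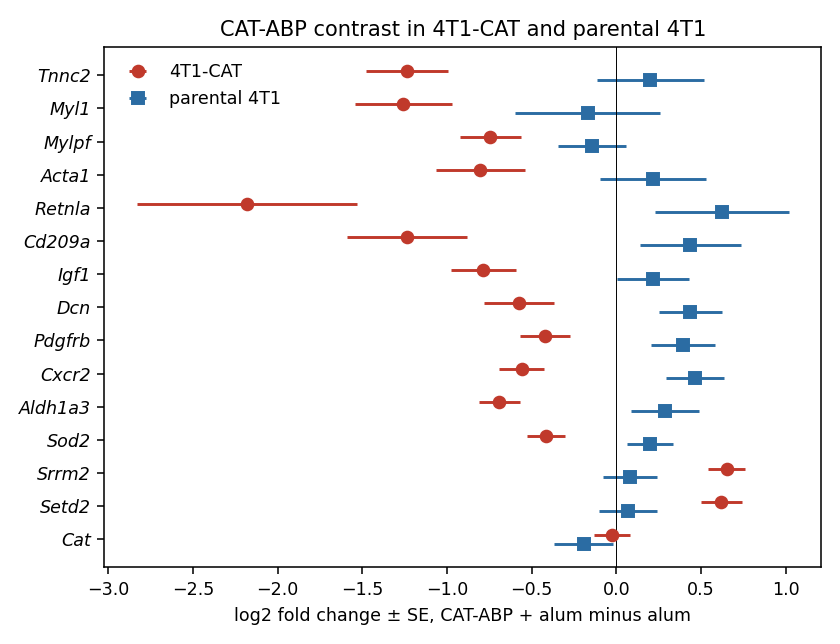
Log2 fold change of CAT-ABP + alum over alum with its SE (horizontal axis) for 15 genes in 4T1-CAT (red circles) and parental 4T1 (blue squares), from separate edgeR fits. Cxcr2 lies at -0.56 in 4T1-CAT and 0.47 in parental 4T1, and Cat near 0 in both.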

How the data were processed

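The authors prepared whole-tumor RNA with HT3DGE, which reads transcripts near their 3′ end, and turned reads into gene counts with a Smart-seq2 workflow on Terra. The deposited values are estimated counts per gene without normalization, and 39.7% of non-zero values were not whole. The authors dropped unnamed technical replicates of low depth from their own analysis, whereas all libraries were kept here. Sums over the 2 libraries of each tumor, rounded to whole numbers, passed filterByExpr and TMM before the quasi-likelihood test of edgeR, with p-values adjusted by Benjamini-Hochberg and called at 0.05. For log2 CPM a prior count of 2 was added. Alternatives were DESeq2, limma voom, RLE scaling, other filters, wider models, a replicate block, single technical replicates and leaving out tumors. The test was checked on simulated counts. Genes named were the 10 with the smallest p per direction, 8 fixed genes, and up to 3 members with an unadjusted p under 0.05 of each of 36 lists, and not all are printed (1 is not reported here). Members and lists were chosen with earlier results of these data known. Transcript lengths and coordinates are from GENCODE M21 on GRCm38. The software was DESeq2 1.42.0, edgeR 4.0.16, limma 3.58.1 and R 4.3.3. The labels number 5 separate samples per group without naming animals, so p-values measure the spread between these samples. This does not hold for DESeq2 with each library as a sample.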

Additional observations from a re-analysis of the deposited data

Results flagged for a closer look

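Of 140 sets of 5 values examined, 10 held 1 value far from the other 4 by Dixon's criterion, where chance gives about 1 in 20. Alum tumor 5, the shallowest tumor, held 5 of them: Tnni2 at 90.6 CPM (others 39.9 to 54.4), Dcn at 572 CPM (239 to 326), Fabp4 at 169 CPM (55.1 to 82.8), Lpl at 57.4 CPM (19.3 to 28.7) and Saa3 at 276.5 CPM (80.9 to 122). CAT-ABP + alum tumor 1 held Gm8995 at 79.4 CPM (51.1 to 56.9), Tap1 at 95.7 CPM (60.0 to 70.1) and Trbc2 at 23.3 CPM (12.6 to 14.9). In CAT-ABP + alum tumor 5, Tnni2 stood at 38.0 CPM (34.2 to 35.0). CAT-ABP + alum tumor 4 held 8709773 counts, against 4505755 to 5669599 in the other 4. The part of these tumors in the results was not tested beyond leaving each out.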

How the results depend on the processing

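Against 0 genes called by edgeR on summed counts, DESeq2 called 214, no filter on low counts 47, limma voom with quality weights 10 and DESeq2 with each library as a sample 8. The last of these counts the 2 libraries of a tumor as separate samples, so its p-values do not measure the spread between tumors. Among alternatives added after seeing the data, DESeq2 called 129 in technical replicate 1, 1 in technical replicate 2 and 1 with equal counts. Leaving out each tumor gave between 0 and 1 calls, with 1 each without CAT-ABP + alum replicate 3 and without CAT-ABP + alum replicate 5. Genes at an unadjusted p under 0.05 (2000) ranged from 1399 to 2385 with a tumor left out. They numbered 3242 without a filter, 1285 by DESeq2 with each library as a sample and 1010 with the inferred sequencing pool as a term. In technical replicate 2 there were 254 (315 by DESeq2), and with equal weight to both libraries 384. Equal counts gave 501 (762 by DESeq2, 821 without CAT-ABP + alum tumor 2, which has the shallow library). The cause was not tested. Library totals in place of TMM moved the median log2 fold change of all genes to 0.16 and the split from 884 higher and 1116 lower to 1761 and 442. The replicate number as a block gave 3 calls. Same-numbered tumors deviated together at correlations between -0.18 and 0.32, so the numbers were not taken to pair the tumors. For the difference from parental 4T1, no filter gave 1 call and 2395 genes at an unadjusted p under 0.05, equal counts 495, and leaving out a tumor between 873 and 1400. The block gave 0 calls there. Total counts differed by 1.37 (log2) in technical replicate 1 (exact permutation p = 0.00794) and by -1.30 in technical replicate 2 (exact permutation p = 0.0556). Among the named genes, Aldh1a3 turned to 0.045 in technical replicate 2 (0.076 by DESeq2), Angptl4 to 0.011 with the pool term, and the Pgk1 log2 fold change to -0.000555 by DESeq2 with equal counts. With a tumor left out, Angptl4 ranged from -0.49 to 0.058, Saa3 from -0.51 to 0.081 (both highest without alum replicate 5) and Cat from -0.058 to 0.026. Cat was at 0.13 with library totals.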
